A study of Mus musculus with 2 samples.

Results

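Mir21a, Mir31, Mir146, Mir146b and Mir155 are 5 of the 2202 miRNA genes measured, and they were taken by gene symbol as miRNAs linked to reactive glia and to inflammation. All 5 symbols were found in the annotation, each at a single gene. The label rests on what these miRNAs are known for. The labels name no treatment or injury, so neither gliosis nor inflammation was compared.

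Short RNAs were sequenced from left cerebral cortex, taken from 2 females aged 2 months. Both were B6CASTF1/J, the name of F1 mice from a cross of C57BL and CAST mice, and the labels name no engineered allele. Each animal gave 1 library, and the 2 libraries form a single group. The labels number the females and the biological replicates separately but give both the same donor identifier, so the spread between libraries may be partly technical. They are called animal 1 and animal 2 after the replicate numbers.

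A miRNA is cut from a hairpin transcript and loaded into an Argonaute protein, which it guides to messenger RNAs that pair with its seed, the bases 2 to 8 from its 5′ end. miR-155 and miR-146a are the textbook inflammatory pair: both are induced by Toll-like receptor and NF-kB signalling in macrophages and microglia. miR-155 then favours the response by repressing inhibitors such as Socs1, whereas miR-146a restrains it by repressing Traf6 and Irak1. miR-21 rises in astrocytes after injury, and miR-31 is known from cell adhesion and migration.

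The mature sequences are shown because they decide which counts can be told apart and which members could share targets. Each is written 5′ to 3′ from RefSeq (GRCm38.p6), with the seed in capitals. All 5 members matched the RefSeq table, giving 10 mature arms, and the 5 hairpins had the same bases and positions as in GENCODE.
miR-21a-5p: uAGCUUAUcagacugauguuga
miR-21a-3p: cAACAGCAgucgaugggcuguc
miR-31-5p: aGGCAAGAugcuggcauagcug
miR-31-3p: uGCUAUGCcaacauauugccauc
miR-146a-5p: uGAGAACUgaauuccauggguu
miR-146a-3p: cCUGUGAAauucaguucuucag
miR-146b-5p: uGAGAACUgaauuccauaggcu
miR-146b-3p: gCCCUAGGgacucaguucuggu
miR-155-5p: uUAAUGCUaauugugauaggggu
miR-155-3p: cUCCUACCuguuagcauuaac

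The seed GAGAACU was shared by miR-146a-5p and miR-146b-5p and by no other of the 1738 mature entries in the table. These 2 arms were identical over their first 17 bases and differed by G18A and U21C, counted from the 5′ end with the miR-146a base first. Their 3p arms had different seeds. Among the same 1738 entries, the 5p seed of miR-21a, AGCUUAU, was shared with miR-21c alone. Mature miRNAs missing from these entries were not searched. miR-31 and miR-155 shared neither of their seeds with another entry. The deposited counts are per gene, so the 2 arms of a hairpin were not separated.

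Mir146 and Mir146b were also the only members to share a run of 18 or more bases with another measured hairpin. Their hairpins are shown with the shared run of 21 bases in capitals.
Mir146: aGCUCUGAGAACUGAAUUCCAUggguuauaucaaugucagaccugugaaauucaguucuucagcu
Mir146b: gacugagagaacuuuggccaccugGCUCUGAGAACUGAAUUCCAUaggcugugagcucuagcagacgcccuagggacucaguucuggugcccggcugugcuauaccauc
A 5p read of full length carries both differing bases, but a read ending before base 18 fits either gene. Reads with several places have a separate entry, so such a read would be missing from both genes. Whether all of them went there is not stated in the labels or file headers, so the count of the rarer Mir146b is the more uncertain. The longest run shared with another measured hairpin was 15 bases for Mir21a, 13 for Mir155 and 12 for Mir31.

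On mm10, Mir21a (ENSMUSG00000065455.1) lies on the minus strand of chromosome 11 at 86584067 to 86584158, in an exon of Vmp1 and within its annotated untranslated region. Mir31 (ENSMUSG00000065408.1) lies on the minus strand of chromosome 4 at 88910557 to 88910662, and the lincRNA AL805899.1 has an exon there. Mir155 (ENSMUSG00000065397.1) lies on the plus strand of chromosome 16 at 84714140 to 84714204, in an exon of its noncoding host Mir155hg. Mir146b (ENSMUSG00000070127.2) lies on the plus strand of chromosome 19 at 46342762 to 46342870, in an intron of Mfsd13a. Mir146 (ENSMUSG00000065601.1) lies on the minus strand of chromosome 11 at 43374397 to 43374461 and overlaps no other annotated gene. The members therefore sit at 5 separate loci, and no gene is annotated on the strand opposite any of them. Their opposite-strand counts were 0 in both animals, and for all 5 the unstranded counts equalled the stranded ones.

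Counts at miRNA genes summed to 4415759 in animal 1 and 2279562 in animal 2. Levels are in CPM, the count over that sum times 1000000, and a mature miRNA gives about a read per molecule whatever the hairpin's length. A count of 0 would have allowed up to 3 counts, or 0.679 CPM in animal 1 and 1.32 in animal 2, and all members lay above that. Unmapped reads were 23.4% and 47.1% of the libraries. The neuron list (7 of 7 detected) included Mir128-1 at 12905, Mir138-1 at 4677 and Mir137 at 3695 CPM on average. The liver miRNA Mir122 averaged 48.9 CPM. Of 10 striated muscle genes, 6 were at 0 in both animals, and the leading ones were Mir206 at 19.9, Mir499 at 4.15 and Mir1b at 1.56 CPM. Zeros at multi-copy genes here and below do not show absence, since reads with several places have a separate entry: the 3 copies of the neuronal Mir124a had only 0 to 2.49 CPM in these cortex libraries.

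All 5 members were detected at 2 CPM or more in both animals, as were 18.8% of all measured genes. Their summed share was 0.1002% in animal 1, with an exact 95% interval (Clopper-Pearson) of 0.0972 to 0.103%, and 0.4565% in animal 2, with 0.448 to 0.465%. Intervals and the 3-count limit cover counting error only: without molecular identifiers, PCR copies are not separate molecules. In bulk tissue, fewer cells of a type and less RNA per cell cannot be told apart.

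Mir31 had 757 counts in animal 1 and 5381 in animal 2, or 171 CPM (exact Poisson 95% interval 159 to 184) and 2361 CPM (2298 to 2424). Its mean was 1266 ± 1548 CPM (SD, n = 2), an SD larger than the mean, since animal 2 was 13.8-fold higher. In rank it stood 171st among the measured genes in animal 1 and 63rd in animal 2.

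Mir21a had 1662 and 3561 counts, which is 376 CPM (358 to 395) in animal 1 and 1562 CPM (1511 to 1614) in animal 2. The mean was 969 ± 838 CPM (SD, n = 2), with animal 2 higher by 4.15-fold and the rank moving from 138 to 82. Mir21c, which shares the seed of miR-21a-5p, and Mir21b, which does not, were at 0 counts in both animals.

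Mir146, which encodes miR-146a, had 1797 and 1370 counts. These correspond to 407 CPM (388 to 426) in animal 1 and 601 CPM (570 to 634) in animal 2, a mean of 504 ± 137 CPM (SD, n = 2) and a 1.48-fold higher level in animal 2. Mir146 was the most abundant member in animal 1 and only the third in animal 2.

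Mir155 was much lower, with 154 and 68 counts, or 34.9 CPM (29.6 to 40.8) in animal 1 and 29.8 CPM (23.2 to 37.8) in animal 2. The mean was 32.4 ± 3.57 CPM (SD, n = 2). The 2 intervals overlap, and its rank was 249 and 251.

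Mir146b was the rarest, with 53 and 26 counts, or 12.0 CPM (8.99 to 15.7) and 11.4 CPM (7.45 to 16.7). Its mean was 11.7 ± 0.422 CPM (SD, n = 2), and it held rank 309 in each animal. Even so, 85.9% of measured genes lay below it in each library.

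**Figure D1:**
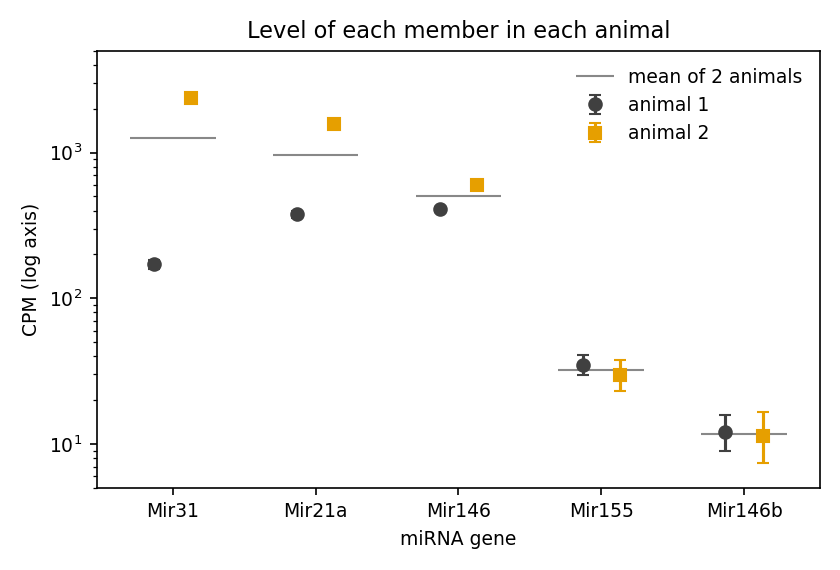
Level of each member in CPM (log axis) in animal 1 (circles) and animal 2 (squares), with exact Poisson 95% intervals and grey lines at the mean of the 2 animals. Mir31 (171 and 2361 CPM) and Mir21a (376 and 1562 CPM) lie far apart between animals, whereas the intervals of Mir155 and Mir146b overlap.

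By mean level the order was Mir31, Mir21a, Mir146, Mir155, Mir146b. The first 3 were not separated beyond their spread: animal 1 had the order Mir146, Mir21a, Mir31 and animal 2 the reverse. Mir155 lay below all 3 and above Mir146b in each animal, with no overlap between the values of these 2 neighbours or between Mir155 and Mir31.

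Ratios within a library do not depend on library scaling. Mir31 had 0.455 times the counts of Mir21a in animal 1 and 1.51 times in animal 2, so the sign of their log2 difference turned from -1.13 to 0.60. Mir146 exceeded its seed partner Mir146b by 33.9-fold in animal 1 and 52.7-fold in animal 2. Together the pair of genes, whose 5p arms share a seed, had 419 and 612 CPM over both arms. Mir146 exceeded Mir155 by 11.7-fold and 20.1-fold. Whether the library captured these sequences with equal efficiency was not tested.

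The make-up of the set differed between the animals. Mir146 held 40.6% of the members' counts in animal 1, Mir21a 37.6% and Mir31 17.1%. In animal 2, Mir31 held 51.7%, Mir21a 34.2% and Mir146 13.2%. Mir155 held 3.48% and 0.653%, and Mir146b 1.20% and 0.250%. Without Mir31, the other 4 members held 0.0830% of all counts in animal 1 and 0.220% in animal 2, so the summed share was 2.66-fold higher in animal 2 in place of 4.56-fold.

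**Figure D2:**
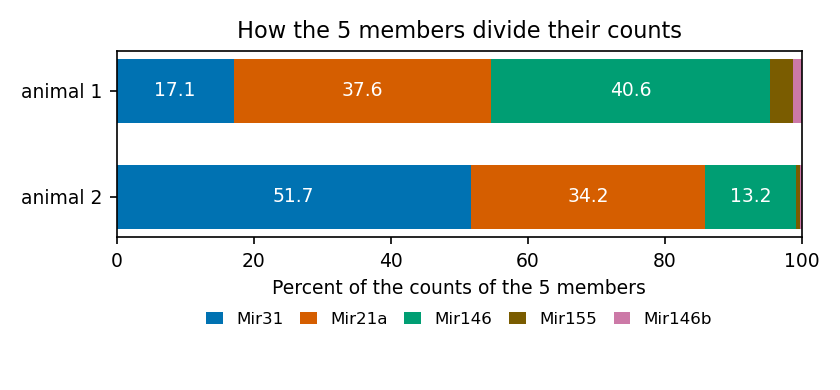
Share of the 5 members' summed counts, in percent, held by each member in animal 1 (upper bar) and animal 2 (lower bar). Mir146 leads in animal 1 with 40.6% and Mir31 leads in animal 2 with 51.7%; Mir155 and Mir146b are small in each.

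The 2 animals were then compared gene by gene. The difference is that of log2(CPM + 1), animal 1 minus animal 2, so a negative value means a higher level in animal 2. A gene was called beyond counting error when the exact 95% interval of animal 1's share of its 2 counts left out the share given by the library totals. This compares 2 libraries, not 2 conditions, and no p-value is given.

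Of the 5 members, 3 were called higher in animal 2, none higher in animal 1, and 2 lay inside counting error. Over the 415 genes detected in both animals, 29.6% were called higher in animal 2 and 56.6% in either direction. Calls depend on depth: among the 200 detected genes that averaged at least 100 CPM, 46.0% were called higher in animal 2, and the 3 members at that level were the 3 called. A count of 3 of 5 is too small to set the members apart from this background.

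The sizes of the differences ranged widely. Mir31 had a difference of -3.78 (counting interval -3.90 to -3.67), the farthest toward animal 2 of all 415 genes. Only 1 gene, Mir301, differed more in absolute terms, toward animal 1. Mir21a had a difference of -2.05 (-2.14 to -1.97), with 4 genes farther toward animal 2 and 7 larger in absolute terms. A call together with a log2 difference past 1 toward animal 2 was made for 6.51% of the 415 genes, and Mir31 and Mir21a were among them.

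Mir146 differed by -0.56 (-0.66 to -0.46), and 117 of the 415 genes differed more in absolute terms. Mir155, at 0.22 (-0.20 to 0.66), and Mir146b, at 0.07 (-0.63 to 0.81), pointed to animal 1 within counting error. At their depth these intervals leave room for a difference in either direction, and a level 1.48-fold higher in animal 2, as Mir146 had, would lie outside the interval of Mir155 but inside that of Mir146b. The members' median difference was -0.56, against 0.00 for all detected genes, whose median absolute difference was 0.32.

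**Figure D3:**
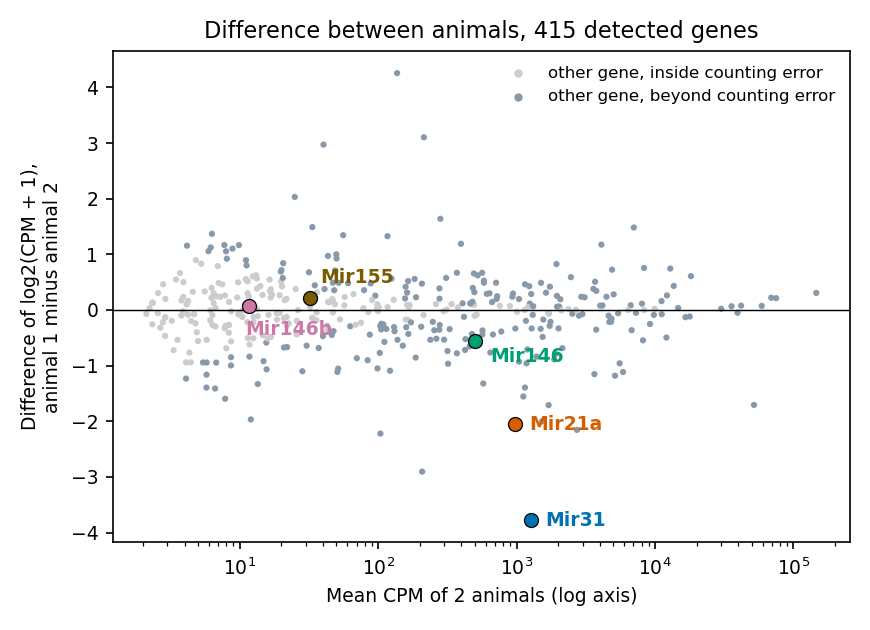
Difference of log2(CPM + 1) between animals (animal 1 minus animal 2) against mean CPM (log axis) for the 415 genes detected in both; grey points lie inside counting error, blue-grey points beyond it, and the 5 members are coloured and named. Mir31 (-3.78) is the lowest point of all, Mir21a (-2.05) lies near the lower edge, and Mir146b and Mir155 lie near 0.

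Genes with the pattern most like each member were taken as the 3 nearest in log2(CPM + 1) over the 2 libraries. For Mir21a these were Mir455 (568 and 1671 CPM, distance 0.60), the oligodendrocyte miRNA Mir219a-2 (634 and 1667 CPM, 0.76) and Mir501 (328 and 822 CPM, 0.95). Mir31 had no close match: its nearest genes were Mir501, Mir455 and Mir298 (611 and 2448 CPM), at distances of 1.78, 1.79 and 1.83. Mir146 had close matches in Mir381 (406 and 547 CPM, 0.14), Mir29c (356 and 561 CPM, 0.22) and the choroid plexus miRNA Mir204 (480 and 652 CPM, 0.27).

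For Mir155 the nearest genes were Mir6236 (32.8 and 31.6 CPM, 0.12), Mir677 (31.9 and 28.1 CPM, 0.15) and Mir467c (40.3 and 29.4 CPM, 0.20). For Mir146b they were Gm23935 (11.3 and 11.0 CPM, 0.09), Mir7046 (12.7 and 10.5 CPM, 0.13) and Mir5132 (11.3 and 10.5 CPM, 0.13). With 2 libraries many genes fall close together at low levels, so nearness there says little.

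The members were next set beside 22 other miRNAs known to respond to innate immune signals or to act on Toll-like receptor or NF-kB signalling. Of these, 17 were detected in both animals; 10 were called higher in animal 2, 5 higher in animal 1, and 2 lay inside counting error. The median difference was -0.71. Of its 13 genes averaging at least 100 CPM, 9 were called higher in animal 2, beside 46.0% of all genes at that level.

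The most abundant of the 22 was Mir132, which neuronal activity and CREB also induce, at 24389 and 79576 CPM and a difference of -1.71. Mirlet7e, at 30338 and 29884 CPM, and Mir125a, at 17115 and 18564 CPM, belong to a single cluster with Mir99b. Mir99b itself had 10367 and 3710 CPM and a difference of 1.48, whereas Mirlet7e (0.02) and Mir125a (-0.12) differed little. Farthest toward animal 2 was Mir222, which acts on the cell cycle inhibitor Cdkn1b, at 1002 and 4464 CPM and a difference of -2.15. Its neighbour Mir221 had 3716 and 8045 CPM and a difference of -1.11.

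Marker miRNAs of other cell types also differed between the libraries. The microglia and leukocyte list had 4 of 5 genes detected, and 3 were called higher in animal 2, with summed levels of 5821 and 6886 CPM. Beside this and the counts of the other lists stand the 29.6% of all detected genes, and 46.0% of those averaging at least 100 CPM, called higher in animal 2, so no list is set apart by its count. The microglia and leukocyte sum came almost wholly from Mir342 at 4467 and 5173 CPM and the lymphocyte miRNA Mir150 at 1319 and 1668 CPM. Next was the blood cell miRNA Mir142 at 31.7 and 35.1 CPM, inside counting error. The myeloid miRNA Mir223 had 12 and 20 counts, or 2.72 and 8.77 CPM, and Mir511 had 3 counts in each animal.

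The oligodendrocyte, vascular and choroid plexus sums were also larger in animal 2. The oligodendrocyte sum was 1642 and 3461 CPM (2 of 3 called higher in animal 2), from Mir338 at 1001 and 1788, Mir219a-2, and Mir219a-1 at 7.47 and 6.14 CPM, which lay inside counting error. The endothelial and smooth muscle sum was 11469 and 15155 CPM (3 of 3 called), from Mir126a at 6662 and 9727, Mir143 at 4590 and 5118 and Mir145a at 216 and 310 CPM. The choroid plexus and ciliated epithelium sum was 555 and 1056 CPM (3 of 7 called, with Mir449b and Mir449c at 0), led by Mir204, Mir34c at 48.2 and 368 CPM and Mir449a at 18.1 and 18.9 CPM, inside counting error.

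The fibroblast and meninges list had 1 of 4 genes detected, Mir214 at 49.4 and 90.8 CPM, with Mir199a-1 and Mir199b at 0 and Mir199a-2 at 1 and 0 counts. The other lists went the opposite way or split. Epithelial genes summed to 181 and 82.0 CPM, led by Mir429 at 66.8 and 32.9, Mir200b at 72.2 and 8.33 and Mir200c at 20.6 and 24.6 CPM. Erythroid genes summed to 459 and 91.2 CPM, from Mir451a at 385 and 43.9, Mir144 at 40.8 and 9.21 and Mir486 at 33.5 and 38.2 CPM. The liver miRNA Mir122, at 60.9 and 36.8 CPM, was called higher in animal 1. So was the muscle miRNA Mir499 at 6.11 and 2.19 CPM, whereas Mir206 at 23.6 and 16.2 CPM lay inside counting error. Of the 7 neuron genes, 4 were called higher in animal 1 and 3 in animal 2, with sums of 33408 and 25609 CPM. Over the 415 genes detected in both animals, 112 were called higher in animal 1 and 123 in animal 2. All 7 neuron genes averaged at least 100 CPM, and calls depend on depth. The share of all genes at that level called higher in animal 1 was not taken. No count toward animal 1 is therefore read as a trait of a list.

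The summed levels of the lists higher in animal 2 differed by 1.18-fold (microglia and leukocyte) to 2.11-fold (oligodendrocyte), against 13.8-fold for Mir31 and 4.15-fold for Mir21a. These are sums of lists beside single genes, and single markers varied more. Among them, Mir34c was 7.62-fold higher in animal 2, Mir223 3.23-fold (12 and 20 counts) and Mir219a-2 2.63-fold. By contrast, Mir219a-1 lay inside counting error at 0.822-fold. Mir34c was the single marker gene with a difference past that of Mir21a toward animal 2, at -2.90. The part of these cell types, of residual blood and of the unequal unmapped share in the members' differences was not tested. Animal, dissection and library preparation cannot be told apart with 1 library per animal.

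**Figure D4:**
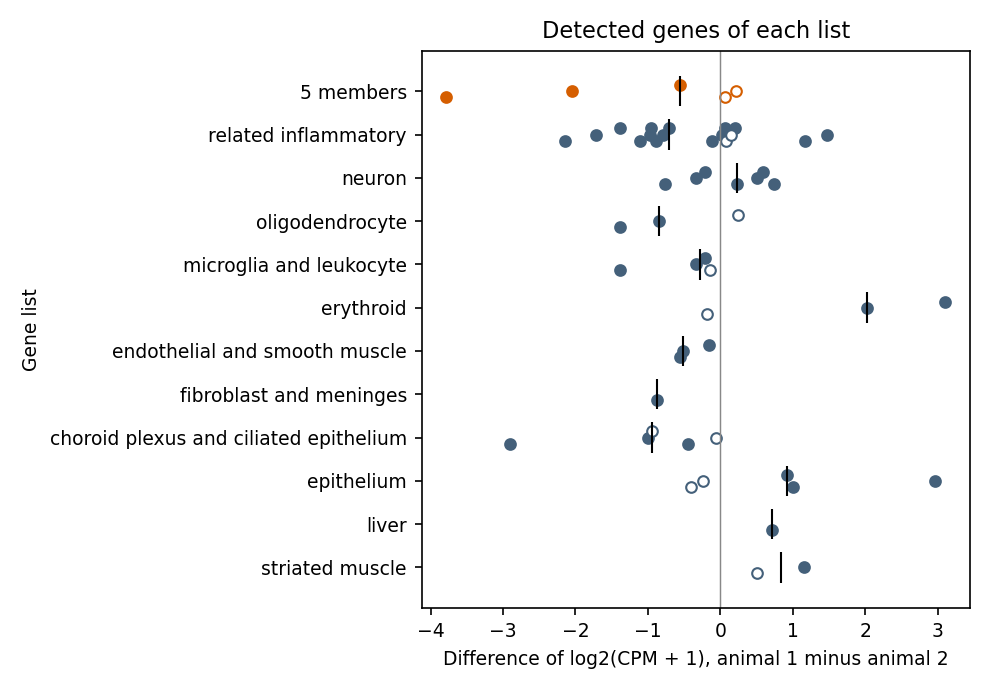
Difference of log2(CPM + 1), animal 1 minus animal 2, for the detected genes of each list; filled points lie beyond counting error, open points inside it, and black ticks are list medians. The members run from -3.78 (Mir31) to 0.22 (Mir155), wider than the oligodendrocyte, microglia and vascular lists. The related inflammatory list (-2.15 to 1.48) and the epithelium list (-0.41 to 2.97) also spread widely. Medians of the erythroid (2.03), epithelium (0.92), striated muscle (0.83), liver (0.71) and neuron (0.23) lists lie toward animal 1.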

How the data were processed

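The authors deposited a table for each library that holds raw, unnormalized read counts at miRNA genes. Per the labels, the molecule was total RNA and the library size range was below 30 nucleotides. The build mm10 and annotation GENCODE M21 are stated in the deposited metadata; the aligner, adapter trimming and treatment of reads with several places are not given in the sources at hand. Reads with several places were 48.9% and 48.2% of mapped reads in animals 1 and 2. Reads of the CAST allele were counted against the same build, and its effect was not tested.

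Column 3, the counts on the read strand, was used. The tables have no header, so the columns' roles were read from the values. The 4 leading entries name no gene and were left out: in animals 1 and 2, unmapped reads were 23.4% and 47.1% of all reads, reads with several places 37.4% and 25.5%, and reads at no gene 6.52% and 4.91%, with 0 ambiguous. All 2202 identifiers matched GENCODE M21, which gave symbols and positions. Mature sequences came from RefSeq (GRCm38.p6), and hairpins from GENCODE M21.

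Detection meant 2 CPM in both libraries, which is 8.83 and 4.56 counts. The single group gives no contrast, so there was no differential test. Intervals are exact 95% Clopper-Pearson or Poisson intervals (scipy 1.17.1), and the call was tested on simulated data. Alternatives used edgeR 4.0.16 TMM factors, DESeq2 1.42.0 size factors, other totals, the unstranded column, detection minimums of 10 CPM or 1 count, pseudocounts of 0.1 and 5 and single libraries.

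The members, lists and tests were chosen with earlier results of these data known. Named genes were the members, their 3 nearest genes by pattern, those sharing a seed or 18 bases with a member, and the 3 most abundant genes of each list. Mir21b, Mir99b, Mir124a, Mir125b-2, Mir199a-1, Mir199b, Mir221, Mir222, Mir223, Mir301, Mir340, Mir449b, Mir449c, Mir491, Mir511 and Mir3085 were chosen after their values were seen.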

Additional observations from a re-analysis of the deposited data

How the results depend on the processing

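Over 22 results and 124 alternative values, 116 kept their call, stayed within the replicate spread or, for counts of genes, stayed within 1.5 times. Part of the 116 was fixed in advance. With 2 libraries, leaving out 1 moves a mean by less than the SD of the 2, so those values always stayed within the spread. No call or direction of a member's difference between animals changed under the alternatives. The pseudocounts could not change either: the call does not use them, and they cannot turn a direction. In the unstranded column the members had the same counts, so only the totals changed. The members' calls were the same with TMM scaling, DESeq2 size factors, either other total and the unstranded column. Of the 415 genes, 112 were called higher in animal 1 and 123 in animal 2; these numbers were 123 and 116 with TMM scaling, and 129 and 108 without the most abundant gene in the total. The median difference moved by 0.05 or less.

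The 8 values that moved were levels and percentiles with a small spread between animals. Over the total of mapped reads, Mir146 had 214, Mir155 13.8 and Mir146b 4.98 CPM; Mir31, at 538, and Mir21a, at 412, fell by a like factor but within their wide spread. Without the most abundant gene in the total, Mir155 had 38.0 and Mir146b 13.7 CPM. In the unstranded column, Mir146b had 12.5 CPM, and 87.0% of measured genes lay below Mir146b and 89.7% below Mir155, in place of 85.9% and 88.6%. The mean log2 difference of Mir31 to Mir21a within a library, -0.27, ran from -1.13 to 0.60 on leaving out either animal. With 2 libraries, the levels of Mir31 and Mir21a are known only as that range; at Mir155 and Mir146b depth limits the comparison.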

Other observations

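The detected miRNA genes nearest in the genome to Mir21a and Mir31 differed between animals in the other direction or little. Mir301 lies 528846 bases from Mir21a and had 261 and 12.7 CPM in animals 1 and 2, a difference of 4.26, whereas Mir21a had -2.05. Mir491 lies 788432 bases from Mir31 and had 62.1 and 52.6 CPM, a difference of 0.23. The nearest detected genes of the other members lie farther off. Mir340, 6695241 bases from Mir146, had -0.90, the same direction as Mir146 (-0.56). Mir3085, 4062592 bases from Mir146b, had -0.56, and Mir125b-2, 7067797 bases from Mir155, had -0.97, whereas these members lay inside counting error.

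Hairpin GC content and the difference between the libraries gave a Pearson's r of 0.02 and a Spearman's rho of 0.04 across the 415 detected genes, which share the 2 libraries. The hairpin of Mir31 had 50.0% GC and that of Mir21a 45.7%, beside a median of 52.4% over the detected genes. Reads come from the mature arms, whose GC content was not compared with the difference. It was 54.5% for miR-31-5p and 36.4% for miR-21a-5p.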
